A study of Mus musculus with 13 samples.

Results

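miR-21 is a microRNA whose precursor hairpin yields a mature RNA from each of its arms, mmu-miR-21-5p and mmu-miR-21-3p. Both mature RNAs were taken by name from the array, where they were 2 of 1079 mouse miRNAs, together with their probes, 2 for the 5p arm and 4 for the 3p arm. In the tumors of curcumin-fed mice both arms were higher than in control tumors, the 5p arm 5.95-fold and the 3p arm 11.3-fold after quantile normalization, where the 3p fold rests on control signals near background. The 5p arm took a mean of 6.38% of all mouse miRNA signal on the arrays of curcumin tumors and of 1.20% on those of controls.

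The samples were B78H1 flank tumors of male C57BL/6 mice. The B78H1 line descends from mouse B16 melanoma, makes no pigment and, as a cloned line, has lost the peptide transporter subunit Tap-2 and MHC class I. It was injected under the skin of both flanks. The curcumin group (7 tumors) ate chow with 4% curcumin from 14 days before the injection, the control group (6 tumors) ate standard chow, and RNA was taken at day 28. The study asked how dietary curcumin, a polyphenol of turmeric, alters miRNAs in growing melanoma. The methods give as many mice as there were arrays and do not say from which flank a tumor came, so p-values measure the spread between these tumors.

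A miRNA gene is transcribed as a long primary RNA. Drosha cuts the hairpin out of it and Dicer then removes the loop. Usually one strand of the resulting duplex is kept in an Argonaute protein, where its seed (bases 2 to 8) pairs with target mRNAs and lowers their output, while the other strand is mostly lost. For miR-21 the kept strand is the 5p arm. It is abundant in many solid tumors, is also expressed in immune cells and fibroblasts, and is known to target Pdcd4, a growth-restraining gene.

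The mature sequences below are from RefSeq (assembly GRCm38.p6), which lists the gene as Mir21a. They are shown to place the seeds and the arms. Capitals mark the seed in the mature RNAs and both arms in the hairpin.

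mmu-miR-21-5p: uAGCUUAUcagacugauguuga

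mmu-miR-21-3p: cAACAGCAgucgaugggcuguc

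Mir21a hairpin: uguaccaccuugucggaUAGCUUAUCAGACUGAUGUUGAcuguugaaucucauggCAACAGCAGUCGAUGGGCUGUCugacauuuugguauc

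mmu-miR-21c: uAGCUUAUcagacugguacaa

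The hairpin of 92 bases lies on the minus strand of chromosome 11, at chr11:86584067-86584158, and overlaps the protein-coding gene Vmp1. The 5p arm, at chr11:86584120-86584141, covers hairpin bases 18 to 39, and the 3p arm, at chr11:86584082-86584103, covers bases 56 to 77. Both are 22 bases long and their seeds differ. Among 1738 mature mouse miRNAs in RefSeq, the seed of the 5p arm was found in 2, the arm itself and miR-21c of chromosome 8, which shares its first 15 bases. miR-21c had no probe of its own on the array, so whether the 5p probes also read it could not be seen in these values. The seed of the 3p arm was found in no other entry.

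One array read the labeled RNA of 1 tumor in 1 color. Summed mouse miRNA signal per array lay between 114095 and 281508 in curcumin tumors and between 150272 and 244666 in controls, and the software called 272 to 370 and 313 to 412 miRNAs detected. The lowest total and the lowest number detected were both those of curcumin tumor 5. The arrays lay on 2 slides, with 3 curcumin and 2 control tumors on slide 1 and 4 of each on slide 2. Every control array sat in line 1 of its slide and every curcumin array in line 2, and diet and array line therefore cannot be told apart. As in the methods, probe signals were summed per miRNA and quantile normalized, which gives all arrays the same set of values and assigns them by rank. In bulk tumor RNA, fewer cells of a type and less RNA per cell cannot be told apart.

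The 5p arm was detected in all 13 tumors. Its normalized log2 value ranged from 12.03 in curcumin tumor 5 to 13.76 in the curcumin group, with the median at 13.76, and from 9.32 to 12.28 with a median of 10.92 in controls. Of the 7 curcumin tumors 6 lay above every control, while tumor 5 lay below control tumors 5 and 6. The means were 13.45±0.65 (SD, n = 7) and 10.88±1.28 (SD, n = 6). The difference was 2.57 on the log2 scale (SE 0.54, 95% interval 1.39 to 3.76), with an adjusted p of 0.00939 by limma over all 1079 miRNAs. The exact permutation test over the 1716 splits of the tumors gave p = 0.00233 (two-sided). By the same limma threshold (adjusted p below 0.05) 8.34% of the miRNAs on the array were higher in curcumin tumors and 7.51% were lower.

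The top of the 5p scale was set by the normalization. On 5 of the 7 curcumin arrays miR-21-5p held rank 2 among the mouse miRNAs, and quantile normalization therefore gave all 5 the same value of 13.76. Tumors 3 and 5 held ranks 4 and 10. In controls the ranks ran from 8, held in 2 tumors, to 43. Before normalization the summed signal of curcumin tumors spread from 2288 to 23640 around a median of 15375, and that of controls from 513 to 6146 around 1621. Curcumin tumor 5 had the lowest of the 7 curcumin signals and lay between control tumors 2 and 6. The mean log2 difference without normalization was 2.86.

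For the 3p arm the software made a detection call in all 7 curcumin tumors and in 5 of 6 controls, all but tumor 1. Its log2 value ranged from 4.27 to 6.66 with a median of 6.25 in curcumin tumors and from 0.90 to 3.86 with a median of 2.69 in controls. Every curcumin tumor lay above every control, a pattern seen for 4.08% of all miRNAs on the array. The means were 6.02±0.83 (SD, n = 7) and 2.52±1.16 (SD, n = 6). The difference of 3.50 (SE 0.55, 95% interval 2.30 to 4.70) had an adjusted p of 0.00348 by limma and p = 0.00117 by the exact permutation test (two-sided). Its size depended on how signals near background were treated, and was 2.71 in the deposited log2 values (adjusted p 0.000279 by limma) and 0.97 after a background correction that models the noise (normexp with an offset of 50, adjusted p 0.000806). Without normalization the difference was 3.37 and the groups overlapped, since the signal of 7.95 in curcumin tumor 5 lay below those of 3 controls (9.89, 13.5 and 24.3).

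**Figure D1:**
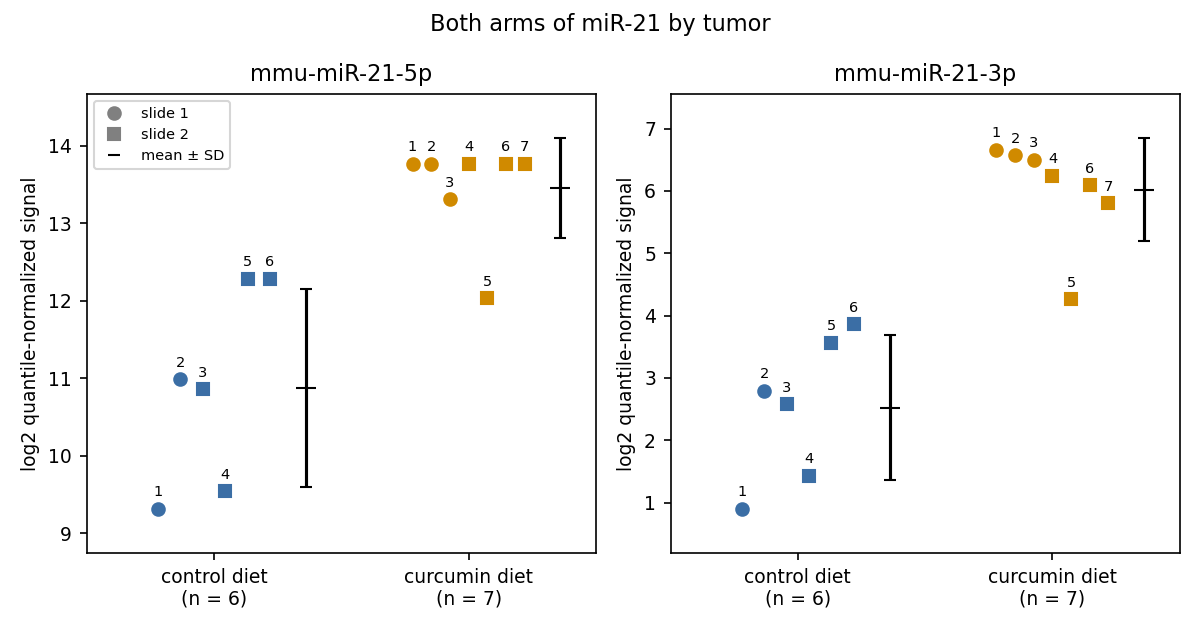
Normalized log2 signal (y axis) of mmu-miR-21-5p (left) and mmu-miR-21-3p (right) in each tumor by diet (x axis), with the tumor number above each point, circles for slide 1, squares for slide 2, and the mean ± SD beside each group. Curcumin tumor 5 is the lowest of its group in both arms, at 12.03 and 4.27, and 5 curcumin tumors share the 5p value of 13.76.

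Within slides the sign was the same for both arms. On slide 1 the 5p difference was 3.46 and the 3p difference 4.73, each with p = 0.1 by the exact permutation test, the smallest that 3 against 2 tumors allow. On slide 2 they were 2.09 (exact p = 0.0857) and 2.74 (exact p = 0.0286, the smallest that 4 against 4 allow). Both differences were larger on slide 1. The test of this change between slides in limma gave unadjusted p-values of 0.257 for the 5p arm and 0.0939 for the 3p arm, and 1.00 for both after adjustment over all miRNAs.

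As a share of the array's signal, a value that does not depend on the normalization between arrays, the arms ordered the tumors in a similar way. The 5p arm made up 2.01% of the signal in curcumin tumor 5 and between 5.11% and 8.40% in the other 6, with a group median of 7.03%. In controls it made up 0.339% to 2.51%, with a median of 0.896%. Curcumin tumor 5 thus lay below control tumors 5 (2.51%) and 6 (2.18%), and the other 6 lay at 5.11% or more. The means of 6.38%±2.21 (SD, n = 7) and 1.20%±0.933 (SD, n = 6) differed by 5.19 percentage points (exact permutation p = 0.00233). Of the 485 miRNAs detected on at least 1 array, 18.8% had a higher share in curcumin tumors with an exact p below 0.05.

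The 3p arm was a small part of the signal in both groups. Its share ranged from 0.00696% to 0.0480% with a median of 0.0312% under curcumin, and from 0.000610% to 0.00992% with a median of 0.00375% in controls. Here the groups overlapped, because curcumin tumor 5, at 0.00696%, lay below control tumors 5 and 6. The means were 0.0325%±0.0137 (SD, n = 7) and 0.00465%±0.00391 (SD, n = 6), with an exact permutation p of 0.00233. The brightest miRNA of the arrays, mmu-miR-3963, took 18.9% to 39.0% of the signal in curcumin tumors and 21.3% to 32.4% in controls (exact permutation p = 0.686), and the shares of miR-21 are shares of a total that contains it.

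**Figure D2:**
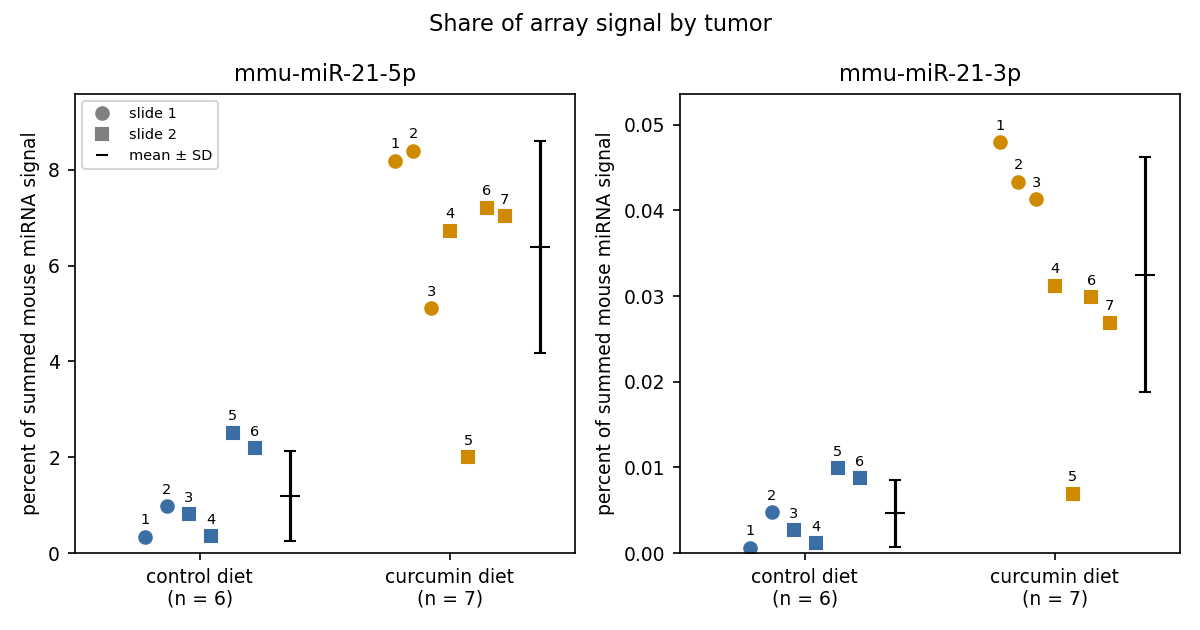
Percent of the summed mouse miRNA signal (y axis, from 0) taken by mmu-miR-21-5p (left) and mmu-miR-21-3p (right) in each tumor by diet (x axis), with tumor numbers, slides and mean ± SD drawn as circles, squares and bars. In both panels 6 curcumin tumors lie above all controls and tumor 5, at 2.01% and 0.00696%, lies among them.

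Both probes of the 5p arm behaved alike. Each was printed in 20 spots per array, and all 120 control spots of each probe were well above background. Probe A_54_P1307 read 1753 to 17417 under curcumin (median 11540) and 389 to 4651 in controls (median 1213), before normalization. Probe A_54_P1308 read 534 to 6223 (median 3835) and 124 to 1496 (median 408). For both probes 6 of 7 curcumin tumors lay above every control, and the remaining tumor was tumor 5.

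After quantile normalization over all 2754 mouse probes, A_54_P1307 was higher by 2.59 (SE 0.50, adjusted p 0.00793 by limma) and A_54_P1308 by 2.81 (SE 0.54, adjusted p 0.00756). Of all probes 5.95% were higher in curcumin tumors at this threshold. The signal of the first probe over that of the second was 2.80 to 3.28 in curcumin tumors and 2.86 to 3.15 in controls, with no difference between the diets detected (exact permutation p = 0.693). Replicate spots of one array varied by 2.08% to 6.62% for the first probe and 2.15% to 13.6% for the second (coefficient of variation), while the 5p signal differed more than 10-fold between the lowest and highest tumor of either group. No spot of either arm was saturated.

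The 4 probes of the 3p arm differed in how far they stood above background. Each had 10 spots per array. A_54_P3447 read 4.88 to 63.0 under curcumin (median 34.7) and 1.04 to 13.1 in controls (median 4.43), and it was well above background on all 7 curcumin and 4 of 6 control arrays. A_54_P3446 read 3.69 to 46.2 (median 27.0) and 0.934 to 9.41 (median 2.87), and it was well above background on 7 and 3 arrays. Both were higher in curcumin tumors, by 3.16 (SE 0.48, adjusted p 0.00366 by limma) and 3.21 (SE 0.44, adjusted p 0.00335), and their ratio did not differ detectably between the diets (1.29 to 1.37 against 1.11 to 1.63, exact permutation p = 0.484). Curcumin tumor 5 was again the lowest of its group on both.

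The remaining probes of the 3p arm were dim. A_54_P3445 was well above background on 6 of 7 curcumin arrays, all but tumor 5, and in 0 of 60 control spots. Since the controls give only a bound, its signal was at least 1.67-fold higher in curcumin tumors. This bound was not tested itself. The probe was called by limma (adjusted p 0.0193) on a log2 difference of 8.86, whose size depends on the lowest value allowed. The call was lost without normalization (adjusted p 0.368) and with scaling to the 75th percentile of all probes (adjusted p 0.325). This bound sets the curcumin mean against the lowest signal called well above background on each control array. A_54_P3444 was well above background on 2 of 7 curcumin arrays, those of tumors 1 and 2, and in 0 of 60 control spots, and it allows no fold. In 5 of 6 controls and in curcumin tumor 5 its signal was at or below 0 after background subtraction.

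**Figure D3:**
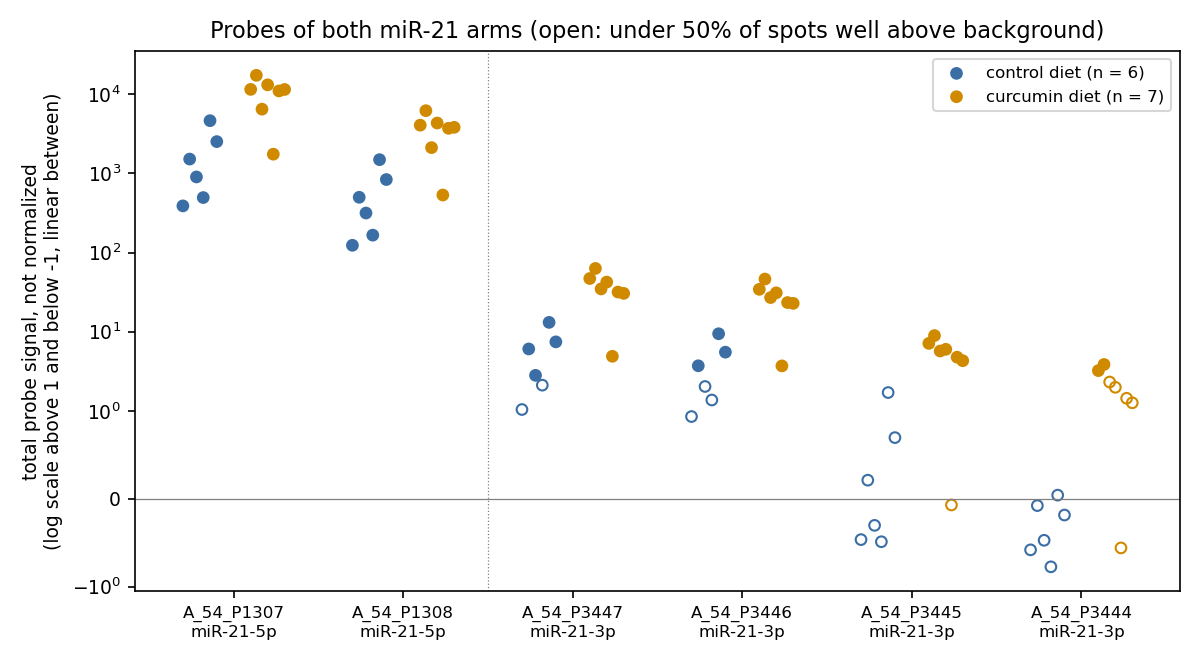
Total probe signal before normalization (y axis, logarithmic beyond 1 and −1 and linear between) of the 2 probes of mmu-miR-21-5p and the 4 of mmu-miR-21-3p (x axis) in each tumor, blue for control and orange for curcumin, with open circles where under 50% of the spots were well above background. Both diets are separate but for curcumin tumor 5 on the 4 brighter probes, and the control points of A_54_P3445 and A_54_P3444 lie around 0.

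The arms were set against each other across the tumors of each diet. In controls, the log2 values of both arms gave Pearson's r = 0.99 (exact permutation p = 0.00278, adjusted 0.00833 over 4 relations, n = 6) and Spearman's rho = 0.99 (exact p = 0.00556, adjusted 0.0111), and r was 0.98 without control tumors 1 and 4, the farthest from the 5p median. In curcumin tumors r was 0.87 (exact permutation p = 0.0952, adjusted 0.0952, n = 7) and rho 0.40 (exact p = 0.429, adjusted 0.429). This relation rested on tumors 3 and 5, since the other 5 shared 1 value of the 5p arm. On the log2 share of signal, which has no such ties, r was 0.97 in controls (exact permutation p = 0.00417, adjusted 0.00833, n = 6; rho = 1.00, exact p = 0.00278, adjusted 0.0111), and 0.98 without control tumors 1 and 5. In curcumin tumors it was 0.91 (exact permutation p = 0.0587, adjusted 0.0783, n = 7; rho = 0.64, exact p = 0.139, adjusted 0.185), and 0.90 without tumors 3 and 5.

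**Figure D4:**
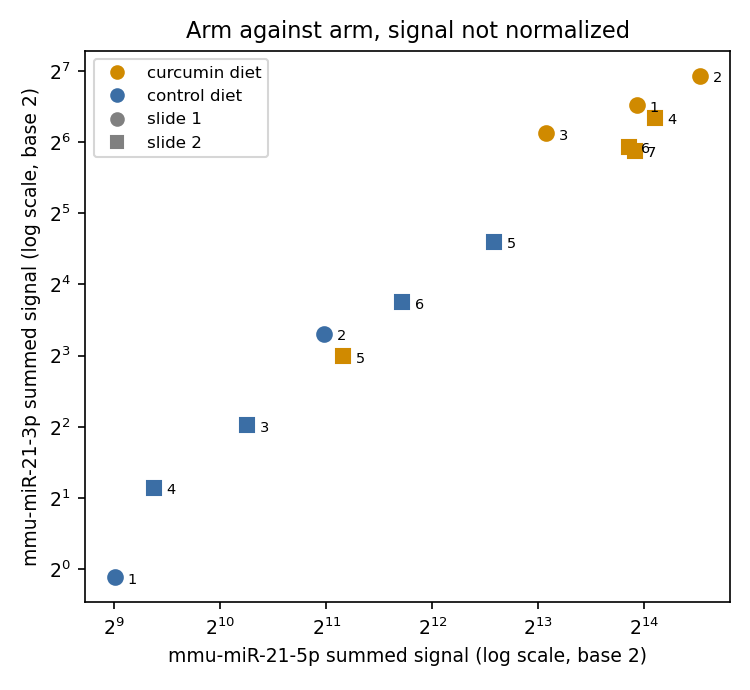
Summed signal before normalization of mmu-miR-21-5p (x axis) against mmu-miR-21-3p (y axis), both on log scales, with 1 point per tumor, orange for curcumin, blue for control, circles for slide 1, squares for slide 2 and the tumor number beside each. Curcumin tumor 5 (2288 and 7.95) lies near control tumor 2 (2021 and 9.89), and the other curcumin tumors lie above all controls in both arms.

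Whether one arm changed more than the other depended on how the values were made. The level of the arm difference (log2 5p minus log2 3p) reflects the probes and is not interpreted, but its change with diet can be compared. From the normalized sums it was 6.80 to 7.96 under curcumin (median 7.52) and 8.11 to 8.72 in controls (median 8.35), without overlap. It was lower by 0.93 in curcumin tumors (SE 0.19, 95% interval of the change −1.34 to −0.51), with an adjusted p of 0.00198 by limma over 40 hairpins and p = 0.00117 by the exact permutation test. The 40 hairpins are those whose arms were both detected throughout 1 or both of the diet groups. miR-21 is among them only through the curcumin group, where it was high, since its 3p arm was called in 5 of 6 controls. The adjusted p is subject to this choice. Of the 40 hairpins 22.5% had a lower and 17.5% a higher arm difference in curcumin tumors by limma (adjusted p below 0.05).

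With the brightest probe of each arm in place of the sums, and without normalization, the change was −0.072 (SE 0.18, 95% interval −0.46 to 0.32, adjusted p 0.771 by limma, exact permutation p = 0.700). Of the 40 hairpins 45.0% passed the threshold in this form, in either direction. In the tumors this difference was 7.55 to 8.56 (median 8.28) with curcumin and 7.88 to 8.55 (median 8.37) in controls, so that the groups overlapped. By slide it was −0.40 on slide 1 (exact p = 0.4) and 0.17 on slide 2 (exact p = 0.314). After quantile normalization these brightest probes were higher in curcumin tumors by 2.59 for the 5p arm and 3.16 for the 3p arm. The sums without normalization gave a change of the arm difference of −0.51 (95% interval −1.05 to 0.025, adjusted p 0.114 by limma, exact permutation p = 0.0571). In the deposited log2 values, which rest on a constant added before the log, the change was −0.14 (adjusted p 0.690). With normexp the change was 1.56 (adjusted p 0.0100), as the 5p difference was then 2.53 and the 3p difference 0.97.

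The dim probes of the 3p arm were set beside the brighter pair. Added together, A_54_P3444 and A_54_P3445 read −7.37% to 13% of the sum of the brighter pair under curcumin (median 11.3%) and −53.2% to 7.73% in controls (median −7.37%). Their sum was below 0 in 3 of 6 controls and in 1 of 7 curcumin tumors. Quantile normalized sums of detected probes (of all probes where a miRNA was not detected) gave a change of −0.95 (SE 0.20, adjusted p 0.00347 by limma). The part of the dim probes in the change from the normalized sums was not tested beyond the values above.

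**Figure D5:**
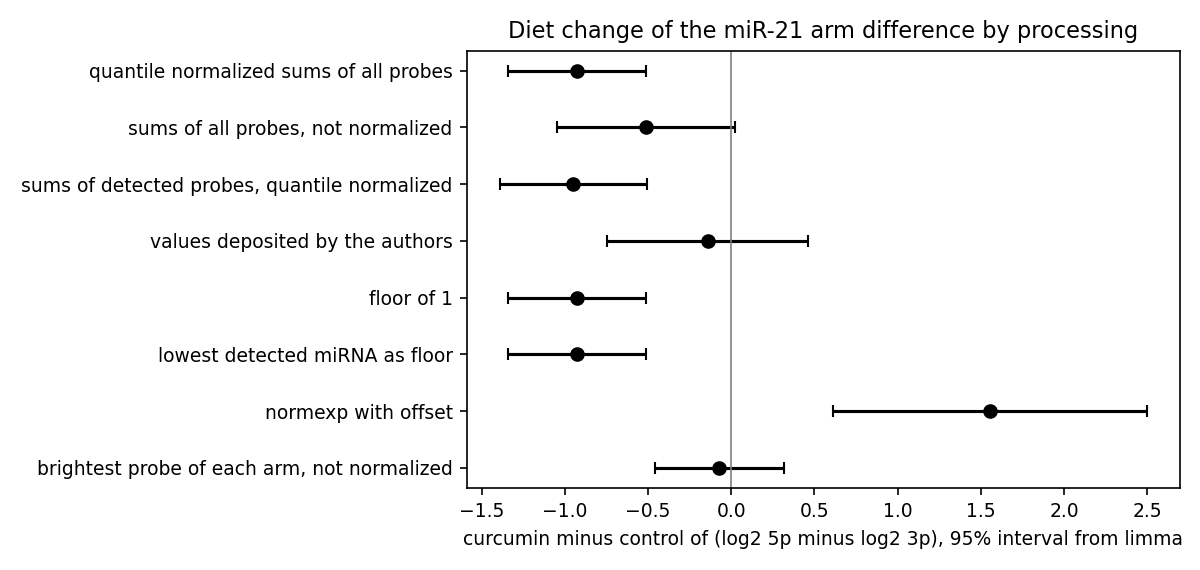
Difference between curcumin and control tumors in the arm difference, log2 5p minus log2 3p (x axis), with its 95% interval from limma, by the values used (y axis). The normalized sums lie at −0.93, the brightest probes without normalization at −0.072 and the normexp values at 1.56, on opposite sides of 0.

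Among the other hairpins of the 40, the most negative changes were those of miR-211 (−3.94, adjusted p 0.00947 by limma) and miR-338 (−3.69, adjusted p 8.83e-05), followed by miR-466f at −3.45 (adjusted p 0.182). The most positive were those of miR-195 (3.16, adjusted p 0.00197) and miR-106b at 3.04 (adjusted p 0.0650), with miR-351 next (1.93, adjusted p 0.00197). The 5p arms of miR-211, miR-338 and miR-466f were detected in all 6 controls but in 4, 6 and 5 of the 7 curcumin tumors. The 3p arm of miR-195 was detected in 6 controls and 3 curcumin tumors. These hairpins are thus among the 40 through the controls only, and their changes include values without a detection call. Counting only hairpins whose arms both passed the threshold in limma (adjusted p below 0.05), miR-21 was 1 of 5 with both arms higher in curcumin tumors. Of such hairpins 2 had both arms lower and 1 had arms that changed in opposite directions.

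The miRNAs most like the 5p arm over the 13 tumors, among 242 others detected on all arrays, were mmu-miR-199a-3p, mmu-miR-22-3p, mmu-miR-29a-3p, mmu-miR-29b-3p and mmu-miR-199a-5p, each with r = 0.96. For the 3p arm, among 243, they were mmu-miR-22-3p (r = 0.98), mmu-miR-199a-3p (0.98), mmu-miR-21-5p (0.98), mmu-miR-29b-3p (0.97) and mmu-miR-29a-3p (0.97). miR-199a is known from fibroblasts and smooth muscle, and the miR-29 family for targeting collagen mRNAs. All of them were higher in curcumin tumors by limma, so the correlations over both diets contain the diet difference, and the points share arrays and normalization. Within controls r with the 5p arm was 0.92 to 0.98 for all 5. Within curcumin tumors it is not given, since 5 of the 7 share 1 normalized value of the 5p arm. The differences were 1.52 (SE 0.24) for miR-29a-3p, 1.64 (SE 0.28) for miR-29b-3p, 1.91 (SE 0.31) for miR-22-3p, 2.21 (SE 0.30) for miR-199a-3p and 2.55 (SE 0.50) for miR-199a-5p.

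miR-21 is often grouped with miRNAs that inflammatory signals induce. Of 7 such miRNAs 6 were higher in curcumin tumors by limma, 0 were lower and 1 did not pass, beside 8.34% higher over all miRNAs. Their median difference was 1.74. The median over all miRNAs was about 0, but there 51.4% of the values were at or below 0 and were set to the lowest value allowed. mmu-miR-155-5p, a miRNA of activated lymphocytes and macrophages, was higher by 1.74 (SE 0.35, adjusted p 0.00749), and mmu-miR-146a-5p and mmu-miR-146b-5p, which dampen Toll-like receptor signaling, by 1.08 (SE 0.25, adjusted p 0.0150) and 3.01 (SE 0.51, adjusted p 0.00374). The miR-221 and miR-222 pair, which targets the cell cycle inhibitor p27, was also higher, mmu-miR-221-3p by 2.80 (SE 0.39, adjusted p 0.00179), although it was detected in 4 of 6 controls. The software called mmu-miR-222-3p in 6 curcumin and 2 control tumors, and although it passed (adjusted p 0.0358), the size of its difference depends on the lowest value allowed. mmu-miR-223-3p, a myeloid miRNA, was higher by 1.21 (SE 0.32, adjusted p 0.0295), and mmu-miR-181b-5p differed by −0.31 (adjusted p 0.609). Without normalization between arrays only mmu-miR-221-3p of these passed (adjusted p 0.0493).

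miRNAs that mark other cells of a tumor were also compared between the diets, and their part in the miR-21 difference was not tested. Of all miRNAs on the array 8.34% were higher in curcumin tumors by limma and 7.51% were lower. All 4 hematopoietic markers were higher in curcumin tumors by limma: mmu-miR-142-3p by 2.31 (SE 0.40, adjusted p 0.00407), mmu-miR-142-5p by 3.51 (SE 0.69, adjusted p 0.00693; detected in 3 of 6 controls), mmu-miR-223-3p as above and mmu-miR-150-5p (adjusted p 0.00407), a lymphocyte miRNA that 6 curcumin tumors and 0 controls showed as detected. Their summed share of signal was 0.152% to 0.691% in curcumin tumors and 0.0419% to 0.161% in controls. The ranges overlapped at their ends, and without normalization only mmu-miR-142-3p of the 4 passed (adjusted p 0.0493). Of 5 fibroblast markers 2 were higher, both mature RNAs of miR-199a (above), and 3 did not pass, among them mmu-miR-214-3p (adjusted p 0.0501), mmu-miR-143-3p at 0.20 and mmu-miR-145-5p at −0.049. Without normalization mmu-miR-199a-3p passed (adjusted p 0.0344) and mmu-miR-199a-5p did not (adjusted p 0.0602). The fibroblast share was 0.190% to 0.613% in curcumin tumors and 0.0795% to 0.205% in controls.

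Markers of other tissues were counted in the same way, beside the same 8.34% higher and 7.51% lower over all miRNAs. Of 4 skeletal muscle markers 1 was higher, mmu-miR-206-3p by 1.24 (SE 0.37, adjusted p 0.0423 by limma, and 0.292 without normalization). The other 3 varied widely between tumors and did not pass, with mmu-miR-1a-3p at 3.84 (SE 3.42), mmu-miR-133a-3p at 2.09 (SE 1.51) and mmu-miR-133b-3p at 2.31 (SE 1.60). The muscle markers had summed shares of 0.0151% to 0.439% and 0.00843% to 0.311%. Neither endothelial marker passed, with mmu-miR-126-3p at 0.83 (adjusted p 0.0647) and shares of 0.126% to 0.464% against 0.0712% to 0.151%. Neither erythroid marker on the array passed, with mmu-miR-451 at −0.82 (adjusted p 0.614) and shares of 0.0192% to 0.112% against 0.0215% to 0.401%. For the tumor cells themselves, the melanocyte miRNA mmu-miR-211-5p, which lies in an intron of Trpm1, was detected in all 6 controls but in only 4 of the 7 curcumin tumors and was lower by 4.76 on average in curcumin tumors (difference −4.76, SE 1.28, adjusted p 0.0305). The second melanocytic miRNA, mmu-miR-204-5p, was detected in 3 of 6 controls and 0 of 7 curcumin tumors and did not pass (adjusted p 0.346). The summed melanocytic share was 0.00147% to 0.265% in curcumin tumors and 0.161% to 0.431% in controls.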

How the data were processed

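miRNA arrays of 13 B78H1 flank tumors were used, 7 curcumin and 6 control, grouped and numbered by the sample labels. The authors hybridized Cy3-labeled RNA to 1-color arrays and deposited intensity values from Feature Extraction (version 10.10.1.1), background-subtracted and not normalized between arrays. The log2 values the authors deposited beside these are quantile normalized per the methods. All 14027 were met within 1e-04 by quantile normalizing the sums of detected probes (of all probes where a miRNA was not detected) and adding 4.39 before the log. They served as an alternative.

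Here the probe signals were summed for each of 1079 mouse miRNAs and quantile normalized. Virus miRNAs were not used. Before log2, values at or below 0 (51.4% of all) were raised to the smallest positive one (0.00765). Detection is the software's call, and a probe counted as well above background on an array where at least 50% of its spots did. limma 3.58.1 in R 4.3.3 (lmFit, eBayes, two-sided, without covariates) tested the diet over all miRNAs, all 2754 probes or 40 hairpins, and p-values were adjusted by Benjamini-Hochberg and read at 0.05. For single values an exact permutation test ran over the 1716 splits (smallest p 0.000583). Python 3.11.15, numpy 2.4.6, pandas 2.3.3 and scipy 1.17.1 were used. The limma step was tested on simulated data. The simulated noise was normal and independent, with SDs capped at 2 and no floor. The counts of calls below therefore do not cover values set to the floor or dim probes. With a log2 change of 2 put into 200 of 681 miRNAs, 65.0% of them were called, 97.0% of those with an SD below 1, with 3 false calls. With 200 of 1725 probes changed in the same way, 48.5% were called, 94.6% of those with an SD below 1, with 5 false calls.

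The number of arrays limits the precision, as do signals near background for the dim probes. The members, the lists and the tests were chosen with earlier results of these data known. The miRNAs named are both arms of miR-21, those sharing their seeds, the 5 detected on all arrays that correlate best with each arm, the 3 hairpins with the most positive and the 3 with the most negative change of the arm difference, the members of the lists, and mmu-miR-3963. One erythroid marker was not matched on the array. Sequences and coordinates are those of RefSeq on GRCm38.p6, in which 840 of the array's names were found as written. Coordinates of the array design, which used mm9, were not used. The alternatives tried were other scalings between arrays, the deposited values, normexp (run on median spot brightness), sums of detected probes, other floors, detected miRNAs only, the slide and the replicate number as blocks, each slide alone, the methods' t-test, other denominators of the share and each array left out in turn. The brightest probe alone, normexp on median brightness and the lowest detected miRNA as floor were added after seeing the data. Tumor growth, qRT-PCR, protein and cell culture data were not analysed here.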

Additional observations from a re-analysis of the deposited data

Results flagged for a closer look

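Curcumin tumor 5 stood apart from the other 6 curcumin tumors in both arms of miR-21, at 12.03 for mmu-miR-21-5p and 4.27 for mmu-miR-21-3p on the log2 scale. Its gap to the next tumor took 73.5% and 64.2% of the whole range of the group, past the 95% critical value of Dixon's test. For the 5p arm that range was capped by the normalization, which gave 5 of the 7 tumors the same value of 13.76. Curcumin tumor 5 was also apart on both 5p probes, A_54_P1307 (11.69) and A_54_P1308 (10.18), and on 3 probes of the 3p arm, A_54_P3447 (3.46), A_54_P3445 (−0.48) and A_54_P3444 (−11.47, the lowest value allowed). These were 7 of 23 groups of values tested, where chance marks about 1 in 20, and the 7 share arrays and probes. The shares of array signal of both arms were among the 23, and no tumor was marked in them. The array of curcumin tumor 5 also had the lowest summed mouse miRNA signal (114095) and the fewest miRNAs detected (272) of all 13 arrays. Without it the difference was 2.80 for the 5p arm (adjusted p 0.00387 by limma) and 3.76 for the 3p arm (adjusted p 0.000315).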

How the results depend on the processing

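Both arms were higher in curcumin tumors under all 16 alternatives and passed the threshold in 13 of them (5p 2.53 to 3.08, 3p 0.97 to 3.59, the lowest with normexp), as they did with each array left out (5p 2.23 to 2.88, 3p 3.16 to 3.77). Within slide 1 alone (3.46 and 4.73) and slide 2 alone (2.09 and 2.74), with fewer tumors, neither passed in limma. The share of signal on slides 1 and 2 differed by 6.57 and 4.28 percentage points for the 5p arm and by 0.0415 and 0.0181 for the 3p arm, with exact p of 0.1, 0.0857, 0.1 and 0.0857. With each array left out it differed by 4.85 to 5.91 and by 0.0253 to 0.0321.

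Same replicate numbers in both diets showed no pairing (correlations −0.30 to 0.20, over 0.1 in 4 of 6, and 0 of 6 highest with their own number). A replicate block in limma gave 2.52 (adjusted p 0.0974) for the 5p arm and 3.54 (0.0527) for the 3p arm. It left 67 miRNAs past the threshold (45 higher, 22 lower). Probe differences with the block were 2.56, 2.74, 3.20, 3.27, 8.89 and 10.66 (adjusted p 0.0550 to 0.131). The values of 8.89 and 10.66, of the dim probes A_54_P3445 and A_54_P3444, depend on the floor. With a floor of 1 and no block these probes gave 2.23 and 0.95.

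The 171 miRNAs past the threshold (90 higher, 81 lower) were 105 with the 75th percentile of all miRNAs (32 lower), 49 without normalization (10 higher, 39 lower), 34 on slide 1 (14 and 20) and 3 on slide 2 (1 and 2). Scaling to equal totals gave 55 higher and 128 lower, and the deposited values 123 lower. Leaving out 1 array gave 102 to 184 (63 to 99 higher, 38 to 85 lower), with 113, 112 and 105 without curcumin tumors 1, 2 and 6, 102 and 108 without control tumors 2 and 4, and 50 lower without curcumin tumor 3.

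The change of the arm difference was −0.14 with deposited values, −0.51 without normalization or with 1 factor per array, and −0.65 on slide 2 alone. It was −0.072 with the brightest probe of each arm without normalization and 1.56, reversed, with normexp. In 7 of 15 alternatives it kept its sign and passed the threshold (−1.27 to −0.89), among them sums of detected probes (−0.95). It was −1.03 to −0.83 with each array left out. Of 16 hairpins called, 9 were called when both arms had to be detected on all arrays, a set that leaves out miR-21. With each array left out 15 to 18 were called. Probe A_54_P3445 gave 7.45 without normalization and 7.79 with the 75th percentile of all probes, values that depend on the floor and no longer passed. The causes were not tested.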
